A study of Mus musculus with 4 samples.

Results

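Transcripts of 44 genes for extracellular matrix proteins and mesenchymal cell markers were followed, out of 23259 genes listed in all 4 libraries. The members were chosen by gene symbol as genes that feeder fibroblasts express. Textbook knowledge split them into 26 genes mostly of fibroblasts and 18 that embryonic stem cells also make. No library here is known to be free of feeders, and none is made of feeders alone, so the cell of origin of each transcript was not measured. All 44 symbols were found. A mean of 1 FPKM (fragments per kilobase of transcript, scaled for depth) was required for the test, and 41 members reached it, 23 of 26 and 18 of 18. Lum, Twist2 and Prrx1 lay just under it, at means of 0.951, 0.825 and 0.86 FPKM, while Pdgfrb and Twist1 lay just above it, at 1.17 and 1.2 FPKM.

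The KO group held clones 4C2 and 6C4, mouse embryonic stem cells in which Cre recombinase had removed exons 3 to 18 of Gcn5 from both alleles. The WT group held clones 4-1 and 6-1, whose floxed alleles were not excised. Going by the names, 4C2 and 4-1 came from founder line 4, and 6C4 and 6-1 from founder line 6, so each genotype is 1 clone per line and 2 in all. Each of the 4 was derived from Gcn5flox/flox blastocysts, went through transient transfection with an EF1α-EGFPcre vector, and was picked after sorting at 72 hours, from GFP-positive cells for KO and GFP-negative cells for WT. A normal male karyotype is given for the lines. Outgrowths were made on gamma-irradiated STO fibroblasts, and the lines were cultured on mouse embryonic fibroblasts arrested with mitomycin C, in medium with 15% serum and 1000 U/mL LIF. The labels describe removal of feeders by re-plating for genotyping; the sources used here do not say whether it was done before RNA isolation. Nothing in the labels says that a clone was grown more than once, so no p-value measures the spread of repeat cultures. In the main fits KO against WT is judged by the spread between clones of the 2 lines within a genotype. Line 6 against line 4 is judged by the spread between the KO and WT clones of a line.

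Fibroblasts build the interstitial matrix of connective tissue. They secrete fibrillar collagens, which are folded by chaperones and hydroxylases in the endoplasmic reticulum, cross-linked by lysyl oxidases outside the cell and coated by proteoglycans such as decorin. Stem cells and the early embryo make mainly another matrix, the basement membrane of collagen IV, laminin and nidogen. Layers of growth-arrested fibroblasts keep mouse stem cells undifferentiated, and their RNA enters any sample from which they are not fully removed.

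The 4 libraries, of unknown depth, listed 11562 to 12174 genes at 1 FPKM or more. Kat2a, the gene for the acetyltransferase Gcn5, had 11.5 and 11.5 FPKM in KO clones 4C2 and 6C4, against 38.7 and 34.4 FPKM in WT clones 4-1 and 6-1. It fell in KO, in 2 of 2 lines (log2 fold change -1.58, SE 0.23, limma adjusted p = 0.0112). The call was lost without KO clone 4C2 (adjusted p = 0.426), without 6C4 (adjusted p = 0.472), without a filter on low values (adjusted p = 0.606) and on centred values (adjusted p = 1.00). Pou5f1, the defining pluripotency factor, had 454 and 640.0 FPKM in KO clones 4C2 and 6C4, against 715 and 782 FPKM in WT clones 4-1 and 6-1, and 10 of 10 pluripotency markers passed the filter. The gene at the median had a KO over WT ratio of 0.704 in line 4 and 0.865 in line 6. On the log2(FPKM + 1) scale this is -0.44 and -0.19, so members are given both as deposited and relative to that gene.

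RefSeq (GRCm38.p6) held a promoter window for 29 of the 44 members, 16 mostly of fibroblasts and 13 of the other group. The 120 bases before the annotated start, 5′ to 3′, are shown for 4 members that stand for the patterns described after them. Col3a1, a fibrillar collagen, has its window at chr1:45311418-45311537 on the plus strand. Bgn, the member with the highest KO over WT ratio in line 6, is at chrX:73483481-73483600 on the plus strand. S100a4, the member past the test between founder lines, is at chr3:90603650-90603769 on the plus strand. Cyr61 (Ccn1 in RefSeq), lower in KO in both lines, is at chr3:145649986-145650105 on the minus strand. Capitals mark a match, on either strand, to CCAAT (the box of NF-Y), TATAAA (the TATA box), GGAATG (the core of TEAD sites) or TGANTCA (AP-1).
Col3a1: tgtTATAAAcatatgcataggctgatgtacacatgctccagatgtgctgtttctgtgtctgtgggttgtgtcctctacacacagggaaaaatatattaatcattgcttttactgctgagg
Bgn: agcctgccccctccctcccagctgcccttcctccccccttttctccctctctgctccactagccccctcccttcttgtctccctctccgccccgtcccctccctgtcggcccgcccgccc
S100a4: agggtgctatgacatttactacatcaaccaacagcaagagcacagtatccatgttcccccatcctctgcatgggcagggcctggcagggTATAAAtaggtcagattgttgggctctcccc
Cyr61: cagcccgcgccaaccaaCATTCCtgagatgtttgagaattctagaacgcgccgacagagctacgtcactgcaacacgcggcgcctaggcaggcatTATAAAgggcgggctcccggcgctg
S100a4 and Cyr61 each held TATAAA close before the start, where a TATA box usually lies, and the TATAAA of Col3a1 lay at the far end of its window. Cyr61 also held GGAATG, as its reverse complement CATTCC. In Bgn none of the 4 motifs was found.

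Over the full 250 bases before the start, on both strands and with overlaps allowed, CCAAT was in 3 of 16 fibroblast members and 7 of 13 others, against 34.5% of all promoters. TATAAA was in 4 of 16 fibroblast members and 2 of 13 others, against 13% of all promoters. GGAATG was in 3 of 16 fibroblast members and 3 of 13 others, against 12.6% of all promoters, and TGANTCA was in 1 of 16 fibroblast members and 0 of 13 others, against 6.87% of all promoters. All shares are over 27025 windows of the same length. The windows of Col4a1 and Col4a2, both among the 7 with CCAAT, overlap by 78 bases. The shares describe letters in the windows and were not tested.

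No member passed the test between KO and WT, and within the founder lines the genes mostly of fibroblasts were lower in KO in line 4 and higher in KO in line 6. Of 41 members tested, 0 passed at an adjusted p of 0.05 (limma over 11932 genes), where 0.0168% of all genes did. At an unadjusted p under 0.05 the members' count was again 0, where 5.54% of all genes passed. The count was 0 as well with founder line as a replicate block, on centred values and without any 1 library. A line has 1 clone of each genotype, so the differences within a line, and between lines, are values with no test.

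In line 4 the KO clone was below the WT clone for 44 of 44 members, and for 97.6% of all genes tested. In line 6 the KO clone was above the WT clone for 24 of 26 fibroblast members and 10 of 18 others, and for 12.3% of all genes tested. Lum and Twist2, both under the filter, were the fibroblast members below WT in line 6. Of the members tested, 23 of 23 mostly of fibroblasts and 10 of 18 others were lower in KO in line 4 and higher in KO in line 6, as were 11.3% of all genes. The remaining 8, Fstl1, Serpinh1, Ctgf, Cyr61, Lamb1, Lamc1, Lama1 and Lama5, were lower in KO in both lines, as were 86.3% of all genes. In the RNA of a culture, a change in fibroblast number, in RNA per fibroblast or in expression by the stem cells cannot be told apart.

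The KO over WT ratio of the 26 fibroblast members had quartiles of 0.685 and 0.763 in line 4 and 1.19 and 1.46 in line 6. Over all genes tested the quartiles were 0.653 and 0.76 in line 4 and 0.807 and 0.929 in line 6. In line 4 the fibroblast members had a median ratio of 0.742, from 0.481 for Mmp2 to 0.857 for Twist2. In line 6 the median was 1.28, from 0.777 for Lum to 1.63 for Bgn. The members that stem cells also make had a median of 0.69 in line 4, from 0.467 for Nid1 to 0.923 for Cyr61, and of 1.02 in line 6, from 0.829 for Ctgf to 1.49 for Timp2.

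On the log2(FPKM + 1) scale the tested fibroblast members had a median KO minus WT difference of -0.38 in line 4 and 0.38 in line 6. Relative to the median gene this is 0.066 in line 4, with 18 of 23 above it, and 0.57 in line 6, with 23 of 23 above it. The direction in line 4 therefore depends on the scale, and that in line 6 does not. The 18 other members had a median of -0.050 against that gene in line 4 and 0.21 in line 6. At 1.5-fold or more on this scale, relative to the median gene, 10 of 23 fibroblast members and 2 of 18 others were higher in KO in line 6, against 1.11% of all genes. The 12 were Col1a1, Col1a2, Col5a2, Col6a2, Col6a3, Col12a1, Bgn, Fbn1, Lox and Loxl1, and Timp2 and Thbs1. By the same measure 0 of 41 were higher in KO in line 4, against 1.1%. Lower in KO were 2 of 41 in line 4, Fn1 and Nid1, against 0.578%, and 0 of 41 in line 6, against 0.721%.

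**Figure D1:**
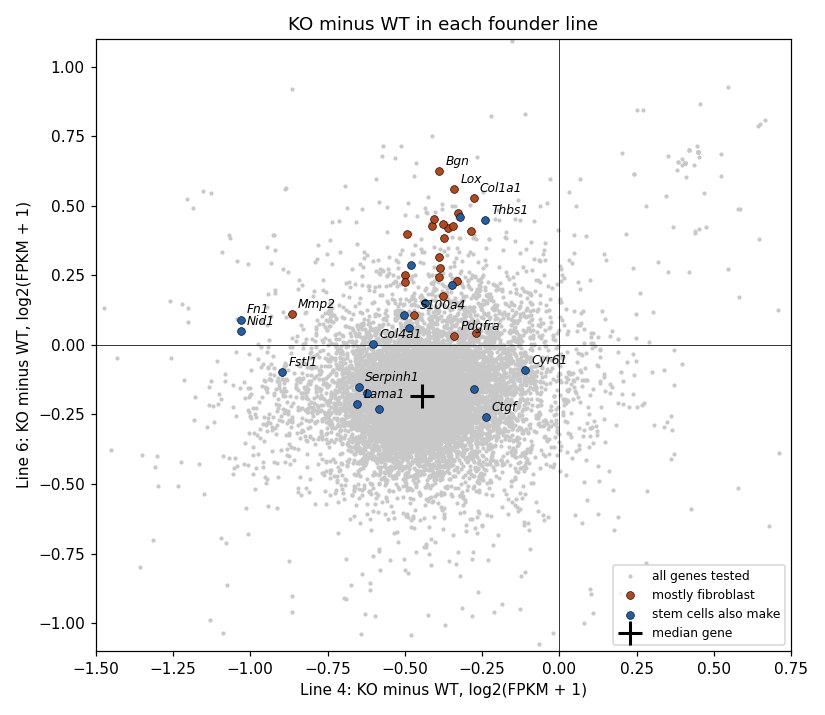
KO minus WT difference of log2(FPKM + 1) in founder line 4 (horizontal axis) and founder line 6 (vertical axis) for the 11932 genes tested (grey), the 23 tested genes mostly of fibroblasts (red) and the 18 that stem cells also make (blue). The cross marks the median gene; all 23 red points lie left of 0 and above 0, and 8 of the 18 blue points lie below 0 on both axes.

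Summed over the 26 fibroblast members the level was 259.7 and 372 FPKM in the KO clones of lines 4 and 6, against 348 and 297 FPKM in the WT clones. Summed over the 18 others it was 515 and 731 FPKM in the KO clones of lines 4 and 6, against 773 and 709.7 FPKM in the WT clones. The 10 pluripotency markers summed to 3385 and 3512 FPKM in the KO clones of lines 4 and 6, against 5357 and 4249 FPKM in the WT clones. Per 1000 FPKM of those markers, the fibroblast members came to 76.7 and 106 FPKM in KO clones 4C2 and 6C4, against 65 and 69.9 FPKM in WT clones 4-1 and 6-1. The 18 others came to 152 and 208 FPKM in KO clones 4C2 and 6C4, against 144 and 167 FPKM in WT clones 4-1 and 6-1. For 7 basement membrane genes among them it was 37.4 and 49.2 FPKM in KO, against 35.6 and 44.5 FPKM in WT. This ratio is free of the spike-in scale only if that scale is a single factor per library, which is not known here. By this ratio KO was above WT in both lines, and 6C4 was the highest clone for all 3 sets. These traits are therefore not particular to the fibroblast members. The rest of the order differed. KO clone 4C2 was above WT clone 6-1 for the fibroblast members, and below it for the other sets. Of the fibroblast sum, S100a4 alone held 33.7 and 98.9 FPKM in 4C2 and 6C4, and 47.1 and 91.7 FPKM in 4-1 and 6-1. The 6 fibrillar collagens summed to 109 and 110 FPKM in 4C2 and 6C4, and 139 and 81.2 FPKM in 4-1 and 6-1. The 10 pluripotency markers that divide this ratio were themselves below the median gene in KO in both lines, except Utf1. Their median was -0.19 in line 4 and -0.085 in line 6 on the log2(FPKM + 1) scale. Each of the 10 was lower in KO in both lines, with KO over WT ratios of 0.54 to 0.838 in line 4 and 0.777 to 0.89 in line 6, and 0 of 10 passed the test. Whether the share of feeders differed between the cultures was not tested.

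**Figure D2:**
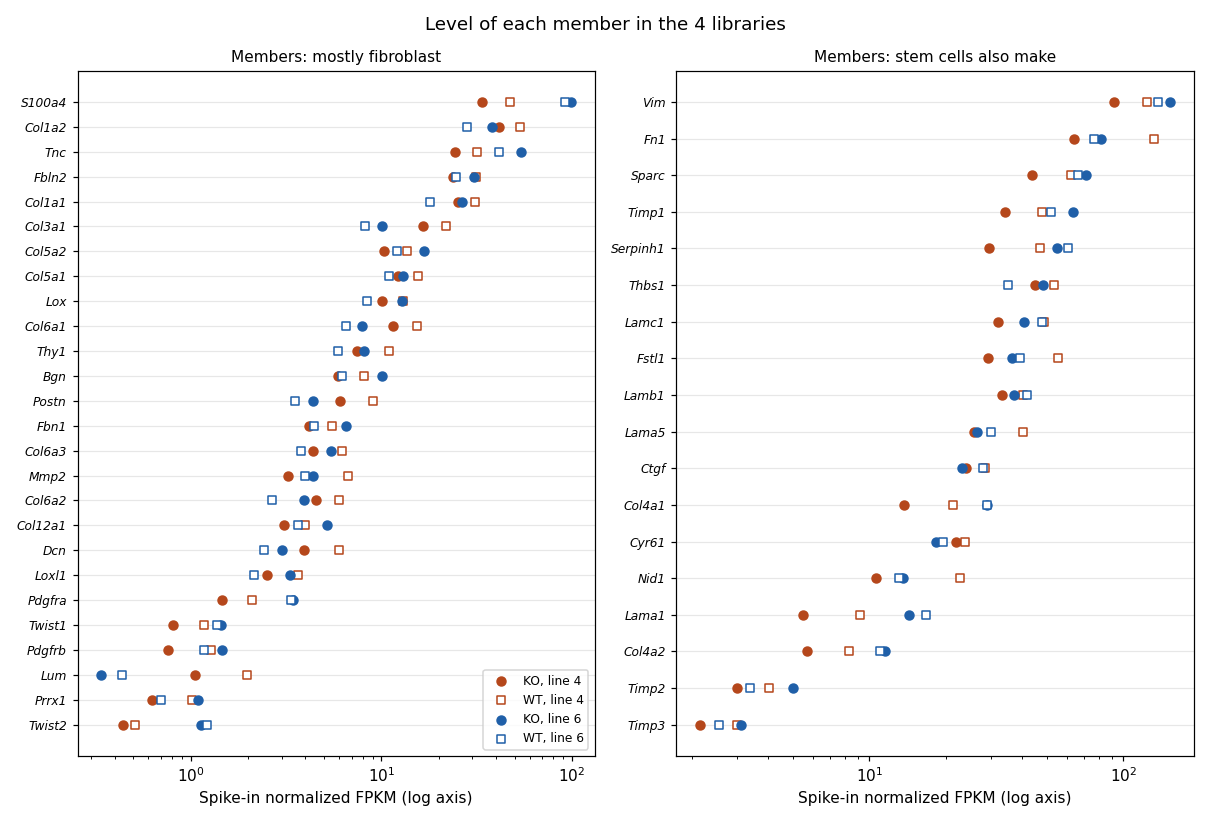
Spike-in normalized FPKM (log axis) for the 26 members mostly of fibroblasts (left) and the 18 that stem cells also make (right), ordered by mean level. Filled circles are KO and open squares WT clones, red for line 4 and blue for line 6; in line 4 the circle lies left of its square for 44 of 44 members, and in line 6 right of it for 34 of 44.

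Fibrillar collagens form the tensile fibres of skin, tendon and bone. Col1a1 and Col1a2, the chains of type I collagen, were the most abundant of them. Col1a1 had 25.3 and 26.5 FPKM in KO clones 4C2 and 6C4, against 30.8 and 18.1 FPKM in WT clones 4-1 and 6-1. Both WT clones lay outside the range of the KO clones, 4-1 above it and 6-1 below it. Col1a2 had 41.5 and 38.1 FPKM in KO clones 4C2 and 6C4, against 53.5 and 28.2 FPKM in WT clones 4-1 and 6-1, with the clones in the same order within each line. For Col1a1 the KO vs WT log2 fold change came to 0.12 (SE 0.26; limma, adjusted p = 0.69). For Col1a2 the KO vs WT log2 fold change came to 0.030 (SE 0.26; limma, adjusted p = 0.925). Both chains were even in KO and far apart in WT: Col1a1 averaged 25.9 ± 0.864 FPKM in KO and 24.5 ± 9.04 FPKM in WT, and Col1a2 averaged 39.8 ± 2.36 FPKM in KO and 40.9 ± 17.8 FPKM in WT (SD, n = 2 each).

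Col3a1, whose type III fibres accompany type I in soft tissue, had 16.5 and 10.1 FPKM in KO clones 4C2 and 6C4, against 21.9 and 8.18 FPKM in WT clones 4-1 and 6-1. Its levels separated by founder line and overlapped by genotype. For Col3a1 the KO vs WT log2 fold change came to -0.055 (SE 0.34; limma, adjusted p = 0.896). Col5a1 and Col5a2, minor chains that limit the diameter of type I fibrils, followed the same course within the lines. Col5a1 had 12.2 and 13 FPKM in KO clones 4C2 and 6C4, against 15.6 and 11 FPKM in WT clones 4-1 and 6-1. Col5a2 had 10.3 and 16.7 FPKM in KO clones 4C2 and 6C4, against 13.7 and 12.1 FPKM in WT clones 4-1 and 6-1. Col12a1, a collagen attached to fibril surfaces, was the least abundant of the 6, with 3.08 and 5.18 FPKM in KO clones 4C2 and 6C4, against 3.98 and 3.65 FPKM in WT clones 4-1 and 6-1. Over the 6 genes the KO over WT ratio ran from 0.753 to 0.819 in line 4 and from 1.19 to 1.47 in line 6. In both lines each of the 6 was above the median gene, as were 27.1% of all genes.

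Collagen VI forms beaded microfibrils around cells, and its 3 chains assemble into 1 protein. Col6a1 had 11.5 and 7.88 FPKM in KO clones 4C2 and 6C4, against 15.3 and 6.51 FPKM in WT clones 4-1 and 6-1, with both clones of line 6 below both of line 4. For Col6a1 the KO vs WT log2 fold change came to -0.073 (SE 0.32; limma, adjusted p = 0.851). Col6a2 had 4.53 and 3.93 FPKM in KO clones 4C2 and 6C4, against 6.02 and 2.66 FPKM in WT clones 4-1 and 6-1, and Col6a3 had 4.41 and 5.43 FPKM in KO clones 4C2 and 6C4, against 6.2 and 3.78 FPKM in WT clones 4-1 and 6-1. The KO over WT ratio was 0.749 in line 4 and 1.21 in line 6 for Col6a1, 0.752 in line 4 and 1.48 in line 6 for Col6a2 and 0.711 in line 4 and 1.44 in line 6 for Col6a3. In line 4 the 3 ratios were nearly equal, and in line 6 that of Col6a1 was the lowest.

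Small leucine-rich proteoglycans bind to collagen fibrils and space them. Bgn (biglycan) had 5.94 and 10.1 FPKM in KO clones 4C2 and 6C4, against 8.08 and 6.19 FPKM in WT clones 4-1 and 6-1. On the log2(FPKM + 1) scale as deposited it was the 1 of 41 members at least 1.5-fold higher in KO in line 6, against 0.511% of all genes. Its ratio of FPKM, 1.63, was the highest of the 44 in line 6. For Bgn the KO vs WT log2 fold change came to 0.12 (SE 0.28; limma, adjusted p = 0.731). Dcn (decorin) had 3.95 and 3.0 FPKM in KO clones 4C2 and 6C4, against 6.0 and 2.42 FPKM in WT clones 4-1 and 6-1. Lum (lumican) had 1.05 and 0.339 FPKM in KO clones 4C2 and 6C4, against 1.98 and 0.436 FPKM in WT clones 4-1 and 6-1, and its ratio of 0.777 was the lowest of the 44 in line 6. Dcn and Lum were both lower in the clones of line 6 than in those of line 4.

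Among the glycoproteins, Fn1 (fibronectin), on which collagen fibrils are laid down, had 64.2 and 81.6 FPKM in KO clones 4C2 and 6C4, against 132 and 76.6 FPKM in WT clones 4-1 and 6-1. WT clone 4-1 stood above the other 3 libraries, and the ratio was 0.486 in line 4 and 1.07 in line 6. Fstl1, a follistatin-like secreted protein, had 29.3 and 36.5 FPKM in KO clones 4C2 and 6C4, against 55.4 and 39.1 FPKM in WT clones 4-1 and 6-1. Again 4-1 was the highest library, and KO and WT did not overlap. For Fn1 the KO vs WT log2 fold change came to -0.47 (SE 0.25; limma, adjusted p = 0.445). For Fstl1 the KO vs WT log2 fold change came to -0.50 (SE 0.24; limma, adjusted p = 0.445). The value of Fstl1 was the lowest of all members, and its unadjusted p was 0.0505.

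Fbn1 (fibrillin 1), the core of elastic microfibrils, had 4.18 and 6.52 FPKM in KO clones 4C2 and 6C4, against 5.51 and 4.42 FPKM in WT clones 4-1 and 6-1. Fbln2, a fibulin, had 23.8 and 30.7 FPKM in KO clones 4C2 and 6C4, against 31.5 and 24.5 FPKM in WT clones 4-1 and 6-1. In both genes 6C4 and WT clone 4-1 were the higher libraries. Postn (periostin), a matricellular protein of connective tissue under load, had 6.08 and 4.41 FPKM in KO clones 4C2 and 6C4, against 9.0 and 3.54 FPKM in WT clones 4-1 and 6-1, with both clones of line 6 below both of line 4. For Postn the KO vs WT log2 fold change came to -0.12 (SE 0.32; limma, adjusted p = 0.752). Tnc (tenascin C), a glycoprotein of developing and healing tissue, had 24.4 and 54.1 FPKM in KO clones 4C2 and 6C4, against 31.9 and 41.3 FPKM in WT clones 4-1 and 6-1, so here the clones of line 6 were the higher ones.

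Ctgf and Cyr61, matricellular proteins known as targets of Yap and Tead, were lower in KO in both lines by similar ratios. Ctgf had 24.1 and 23.2 FPKM in KO clones 4C2 and 6C4, against 28.6 and 28 FPKM in WT clones 4-1 and 6-1, and KO and WT did not overlap. Cyr61 had 21.9 and 18.2 FPKM in KO clones 4C2 and 6C4, against 23.7 and 19.5 FPKM in WT clones 4-1 and 6-1, and KO and WT overlapped. The ratio was 0.842 in line 4 and 0.829 in line 6 for Ctgf and 0.923 in line 4 and 0.936 in line 6 for Cyr61. The median over all genes tested was 0.704 in line 4 and 0.865 in line 6, and only Ctgf in line 6 lay below it. For Cyr61 the KO vs WT log2 fold change came to -0.10 (SE 0.24; limma, adjusted p = 0.727). Thbs1 (thrombospondin 1), a matricellular protein that binds cells and growth factors, had 45 and 48.4 FPKM in KO clones 4C2 and 6C4, against 53.3 and 35.2 FPKM in WT clones 4-1 and 6-1, below WT in line 4 and above it in line 6. Sparc (osteonectin), which binds collagen, had 43.5 and 71.3 FPKM in KO clones 4C2 and 6C4, against 62.1 and 66.2 FPKM in WT clones 4-1 and 6-1, with 4C2 the lowest library. For Sparc the KO vs WT log2 fold change came to -0.20 (SE 0.24; limma, adjusted p = 0.526).

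Of the enzymes of collagen assembly, Lox and Loxl1 cross-link collagen and elastin outside the cell. Lox had 10.0 and 12.9 FPKM in KO clones 4C2 and 6C4, against 13 and 8.41 FPKM in WT clones 4-1 and 6-1, and Loxl1 had 2.52 and 3.32 FPKM in KO clones 4C2 and 6C4, against 3.67 and 2.16 FPKM in WT clones 4-1 and 6-1. Their ratios of 1.53 and 1.54 in line 6 were exceeded by those of Bgn and Prrx1 alone. For Lox the KO vs WT log2 fold change came to 0.11 (SE 0.27; limma, adjusted p = 0.734). Serpinh1 (Hsp47), the chaperone that folding procollagen needs in every cell that makes it, had 29.7 and 54.6 FPKM in KO clones 4C2 and 6C4, against 47.1 and 60.7 FPKM in WT clones 4-1 and 6-1. It was lower in KO in both lines, and the 2 clones of line 6 were above those of line 4. For Serpinh1 the KO vs WT log2 fold change came to -0.40 (SE 0.26; limma, adjusted p = 0.445).

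Mmp2, a gelatinase that cleaves matrix collagen, had 3.22 and 4.39 FPKM in KO clones 4C2 and 6C4, against 6.69 and 3.99 FPKM in WT clones 4-1 and 6-1. WT clone 4-1 was the highest library, and the ratio in line 4, 0.481, was the lowest of the fibroblast group. Timp1, an inhibitor of such proteases, had 34.1 and 63.7 FPKM in KO clones 4C2 and 6C4, against 47.9 and 52 FPKM in WT clones 4-1 and 6-1, with 4C2 the lowest library and 6C4 the highest. For Timp1 the KO vs WT log2 fold change came to -0.10 (SE 0.26; limma, adjusted p = 0.757). Timp2 had 3.01 and 5.02 FPKM in KO clones 4C2 and 6C4, against 4.01 and 3.38 FPKM in WT clones 4-1 and 6-1, and Timp3, which stays bound to matrix, had 2.15 and 3.14 FPKM in KO clones 4C2 and 6C4, against 3.01 and 2.56 FPKM in WT clones 4-1 and 6-1. All 3 inhibitors were below WT in line 4 and above it in line 6.

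Surface markers and transcription factors of mesenchyme had low levels. Thy1, a surface glycoprotein of embryonic fibroblasts, had 7.5 and 8.1 FPKM in KO clones 4C2 and 6C4, against 11 and 5.91 FPKM in WT clones 4-1 and 6-1, and the WT clones were the highest and the lowest library. For Thy1 the KO vs WT log2 fold change came to -0.048 (SE 0.28; limma, adjusted p = 0.891). Pdgfra, a receptor for platelet-derived growth factor that primitive endoderm also carries, had 1.46 and 3.45 FPKM in KO clones 4C2 and 6C4, against 2.11 and 3.36 FPKM in WT clones 4-1 and 6-1, which separated by line. For Pdgfra the KO vs WT log2 fold change came to -0.16 (SE 0.30; limma, adjusted p = 0.674). Pdgfrb, the receptor of pericytes and fibroblasts, had 0.757 and 1.46 FPKM in KO clones 4C2 and 6C4, against 1.28 and 1.18 FPKM in WT clones 4-1 and 6-1. Twist1, Twist2 and Prrx1, transcription factors of limb and head mesenchyme, lay between 0.44 and 1.44 FPKM in the 4 libraries.

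Vim (vimentin), an intermediate filament protein of mesenchyme that cultured stem cells also make, had the highest mean FPKM of the 44, with 91.7 and 153 FPKM in KO clones 4C2 and 6C4, against 124 and 137 FPKM in WT clones 4-1 and 6-1. S100a4, a calcium-binding protein also called fibroblast-specific protein, had 33.7 and 98.9 FPKM in KO clones 4C2 and 6C4, against 47.1 and 91.7 FPKM in WT clones 4-1 and 6-1. For both, 6C4 was the highest library and 4C2 the lowest. For Vim the KO vs WT log2 fold change came to -0.14 (SE 0.23; limma, adjusted p = 0.628). For S100a4 the KO vs WT log2 fold change came to -0.18 (SE 0.36; limma, adjusted p = 0.682). Gencode (GRCm38) places another gene, Gm42674, over part of S100a4 on the same strand, and how the authors assigned reads of overlapping genes is not known here.

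Basement membrane genes had KO over WT ratios below those of most genes in line 4 and near the median gene in line 6. Over Col4a1, Col4a2, Lama1, Lama5, Lamb1, Lamc1 and Nid1 the median was 0.642 in line 4 and 0.894 in line 6, against 0.704 and 0.865 for all genes tested. The lower quartile of all genes in line 4 was 0.653, above the median of these 7. In line 4, 1 of 7 was above the median gene and 4 of 7 (Col4a1, Lama1, Lama5 and Nid1) were at least 1.5-fold lower in KO on the log2(FPKM + 1) scale, against 16.1% of all genes. In line 6, 5 of 7 were above the median gene. Col4a1, a chain of the collagen IV network, had 13.7 and 29 FPKM in KO clones 4C2 and 6C4, against 21.3 and 28.9 FPKM in WT clones 4-1 and 6-1. KO clone 4C2 was the lowest library, and the clones of line 6 were nearly equal. For Col4a1 the KO vs WT log2 fold change came to -0.30 (SE 0.29; limma, adjusted p = 0.467). Col4a2, its partner chain, had 5.67 and 11.5 FPKM in KO clones 4C2 and 6C4, against 8.34 and 11 FPKM in WT clones 4-1 and 6-1. The pair lies head to head, and their RefSeq promoter windows overlap.

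Lama1, Lamb1 and Lamc1 form the first laminin of the embryo. Lama1 had 5.47 and 14.3 FPKM in KO clones 4C2 and 6C4, against 9.18 and 16.8 FPKM in WT clones 4-1 and 6-1, and the clones of line 6 were above those of line 4. Lamc1 had 32.1 and 40.5 FPKM in KO clones 4C2 and 6C4, against 48.7 and 47.7 FPKM in WT clones 4-1 and 6-1, and both KO clones were below both WT clones. For Lama1 the KO vs WT log2 fold change came to -0.43 (SE 0.35; limma, adjusted p = 0.445). For Lamc1 the KO vs WT log2 fold change came to -0.41 (SE 0.22; limma, adjusted p = 0.445). Lamb1 had 33.2 and 37.3 FPKM in KO clones 4C2 and 6C4, against 40.4 and 41.7 FPKM in WT clones 4-1 and 6-1, and Lama5, an alpha chain of later basement membranes, had 25.8 and 26.5 FPKM in KO clones 4C2 and 6C4, against 40.3 and 30.0 FPKM in WT clones 4-1 and 6-1. All 4 chains were lower in KO in both lines. Nid1 (nidogen), which joins laminin to collagen IV, had 10.6 and 13.5 FPKM in KO clones 4C2 and 6C4, against 22.7 and 13 FPKM in WT clones 4-1 and 6-1, with WT clone 4-1 well above the other 3 libraries. Its ratio of 0.467 in line 4 was the lowest of the 44. For Nid1 the KO vs WT log2 fold change came to -0.49 (SE 0.27; limma, adjusted p = 0.445).

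Extraembryonic endoderm also lays down collagen IV and laminin, and 11 markers of it were followed beside these genes. Their summed level was 6.47 and 15 FPKM in the KO clones of lines 4 and 6, against 11 and 19.1 FPKM in the WT clones. Of the 6 that passed the filter, 6 were lower in KO in line 4, as were 97.6% of all genes, and 5 were lower in KO in line 6, as were 87.7%. These counts are near the shares of all genes. Gata6, the defining endoderm factor, had 0.341 and 1.36 FPKM in KO clones 4C2 and 6C4, against 0.901 and 1.39 FPKM in WT clones 4-1 and 6-1, and 4 of 11 markers stayed under 1 FPKM in all 4 libraries. The part of such cells in the basement membrane values was not tested.

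**Figure D3:**
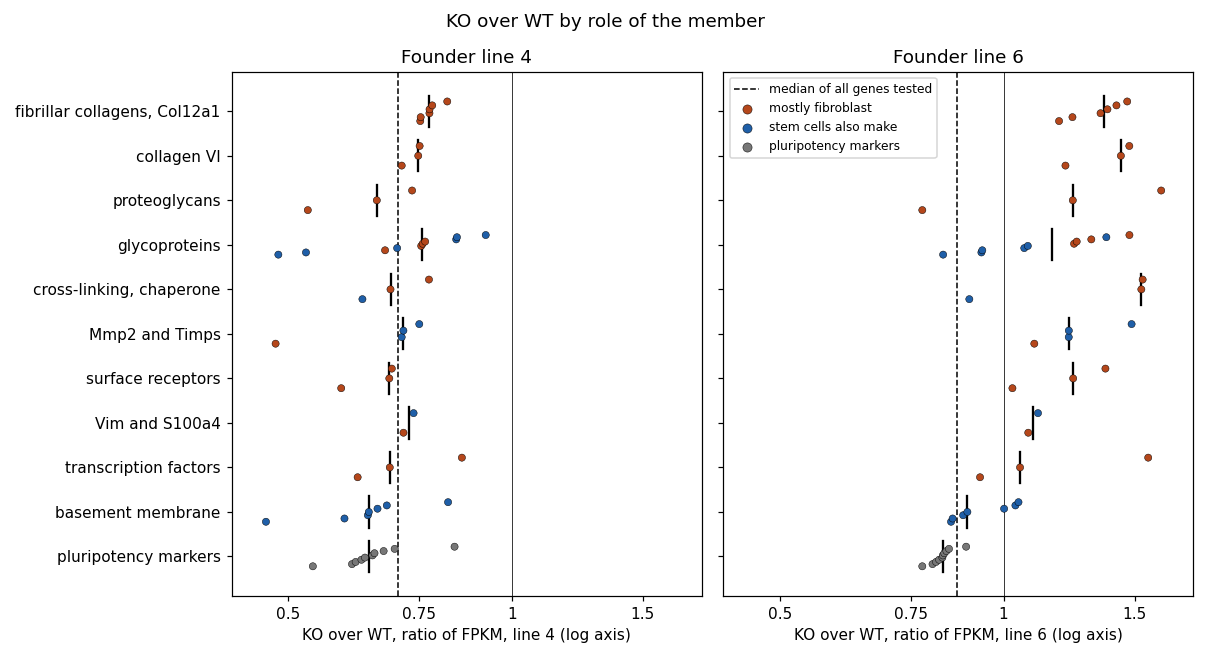
KO over WT ratio of FPKM (log axis) in line 4 (left) and line 6 (right) for members grouped by role; each point is 1 gene, red for genes mostly of fibroblasts, blue for genes that stem cells also make and grey for 10 pluripotency markers. Short bars are group medians and the dashed line is the median of all genes tested; fibrillar collagens and collagen VI lie above 1 in line 6, and 6 of 7 basement membrane genes lie left of the dashed line in line 4 and 2 of 7 in line 6.

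KO and WT did not overlap for 5 of the 41 members tested, with both KO clones lower: Fstl1, Ctgf, Lamb1, Lamc1 and Lama5. Of all genes, 59.8% behaved so. All 5 belong to the group that stem cells also make. Both KO clones were above both WT clones for 0 of 41, against 0.268% of all genes. As deposited and on the log2(FPKM + 1) scale, 8 of 41 members were at least 1.5-fold lower in KO in line 4, against 16.1% of all genes. They were Mmp2 of the fibroblast group, and Col4a1, Fn1, Fstl1, Serpinh1, Lama1, Lama5 and Nid1.

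Between founder lines 1 of 41 members passed in the main fit, near the share of all genes. Line 6 was set against line 4 over the 2 clones of each, 1 KO and 1 WT. The fit gave genes of like level the same spread, taken from the KO and WT clones within the lines. S100a4 had 98.9 and 91.7 FPKM in the KO and WT clones of line 6, against 33.7 and 47.1 FPKM in those of line 4. It was the 1 of 41 members past the test, higher in line 6 in both genotypes, where 1.98% of all genes passed and 0.947% passed as higher in line 6. The S100a4 log2 fold change, line 6 over line 4, came to 1.24 (SE 0.35; limma, adjusted p = 0.0289). Lama1 had 14.3 and 16.8 FPKM in the KO and WT clones of line 6, against 5.47 and 9.18 FPKM in those of line 4, and Col3a1 had 10.1 and 8.18 FPKM in the KO and WT clones of line 6, against 16.5 and 21.9 FPKM in those of line 4. The Lama1 log2 fold change, line 6 over line 4, came to 1.02 (SE 0.34; limma, adjusted p = 0.0972). The Col3a1 log2 fold change, line 6 over line 4, came to -0.98 (SE 0.34; limma, adjusted p = 0.133). Neither passed.

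How many members passed between lines depended on the fit. With genotype as a term there were 11, of which 7 were higher in line 6 (Col4a1, Col4a2, Lama1, Pdgfra, S100a4, Serpinh1 and Tnc) and 4 lower (Col3a1, Col6a1, Dcn and Postn). Of all 11932 genes tested, 1089 passed in that fit. After centring each library 14 members passed, 10 higher and 4 lower, where 3602 of all 11932 genes did. The count of members also changed when WT clone 4-1 or KO clone 4C2 was left out, which leaves a single clone in line 4. Without WT clone 6-1, without KO clone 6C4 and without a filter on low values there were 0, so S100a4 was then lost too.

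Levels of the lines did not overlap, with line 6 higher, for 11 of 41 members, against 16.3% of all genes. The 11 were Pdgfra, S100a4, Twist1 and Tnc of the fibroblast group, and Col4a1, Col4a2, Sparc, Timp1, Serpinh1, Vim and Lama1. With line 6 lower there were 7 of 41, against 17.4% of all genes, namely Col1a2, Col3a1, Col6a1, Col6a2, Postn, Dcn and Cyr61. Between the KO clones the line 6 over line 4 ratio of the 44 members ran from 0.322 for Lum to 2.94 for S100a4. Between the WT clones it ran from 0.22 for Lum to 2.37 for Twist2. Each clone was sampled once, so founder line and the culture sampled cannot be told apart.

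**Figure D4:**
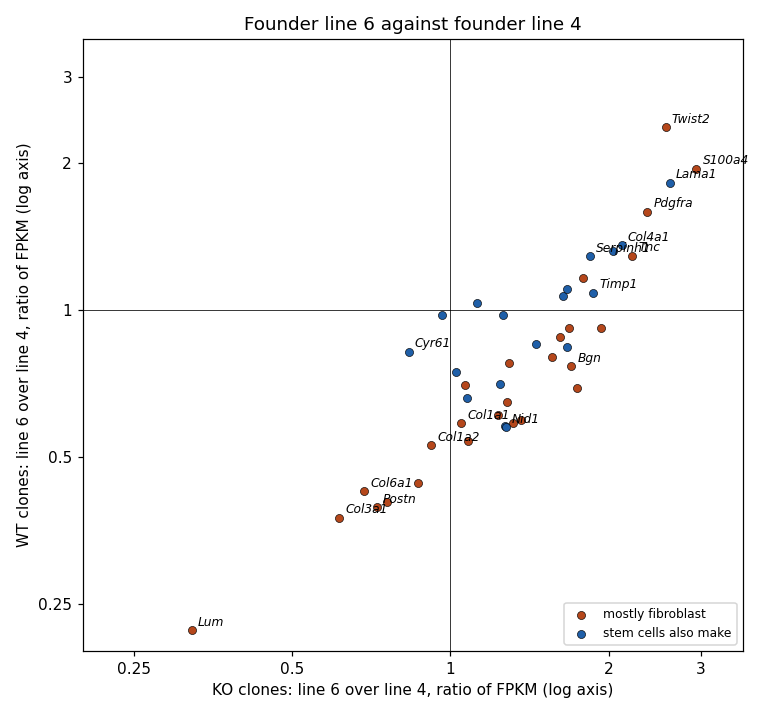
Ratio of FPKM in line 6 over line 4 for each of the 44 members, between the KO clones (horizontal, log axis) and between the WT clones (vertical, log axis), red for genes mostly of fibroblasts and blue for genes that stem cells also make. Fibroblast members spread from Lum at the lower left to S100a4 and Twist2 at the upper right.

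Genes of the wider matrix pathway gave no call between KO and WT, where 0.0168% of all genes were called. By sign, 86.3% of all genes were lower in KO in both lines, and 11.3% were lower in line 4 and higher in line 6. Of 28 genes for collagen folding, hydroxylation, secretion and cross-linking, 20 were tested, 0 rose and 0 fell between KO and WT, 16 were lower in KO in both lines and 4 were lower in line 4 and higher in line 6. Set against the median gene they had a median of -0.015 in line 4 and 0.063 in line 6. P4hb, a subunit of prolyl hydroxylase and a general disulfide isomerase, had 179.7 and 215 FPKM in KO clones 4C2 and 6C4, against 256 and 245 FPKM in WT clones 4-1 and 6-1. Ppib, a prolyl isomerase of the endoplasmic reticulum, had 138 and 173 FPKM in KO clones 4C2 and 6C4, against 185 and 202 FPKM in WT clones 4-1 and 6-1. Pcolce, which enhances the cleavage of procollagen, had 28 and 39.1 FPKM in KO clones 4C2 and 6C4, against 45.9 and 42 FPKM in WT clones 4-1 and 6-1. All 3 were lower in KO in both lines.

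Of 23 integrins and other matrix receptors 15 were tested, and 0 rose and 0 fell between KO and WT. In both lines 10 of 15 were lower in KO (all genes, 86.3%), and 5 of 15 were lower in line 4 and higher in line 6 (all genes, 11.3%). Itgb1, the shared beta subunit of collagen and fibronectin receptors, had 51 and 69.8 FPKM in KO clones 4C2 and 6C4, against 66.3 and 70.1 FPKM in WT clones 4-1 and 6-1. Sdc4, a syndecan, had 48.8 and 32.9 FPKM in KO clones 4C2 and 6C4, against 66.5 and 33.3 FPKM in WT clones 4-1 and 6-1, and Itga6, a subunit of laminin receptors, had 31.8 and 36.6 FPKM in KO clones 4C2 and 6C4, against 47.6 and 41.9 FPKM in WT clones 4-1 and 6-1. Cd44, the hyaluronan receptor, was higher in line 6 than in line 4. It had 4.92 and 3.47 FPKM in the KO and WT clones of line 6, against 1.24 and 1.52 FPKM in those of line 4. The Cd44 log2 fold change, line 6 over line 4, came to 1.11 (SE 0.27; limma, adjusted p = 0.00522).

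Of 43 further matrix genes 25 were tested, and 0 rose and 0 fell between KO and WT. Here 13 of 25 were lower in KO in both lines, and 12 of 25 were lower in line 4 and higher in line 6, against the same shares of all genes. The most abundant were Col18a1, Nid2 and Hspg2, all of the basement membrane. Col18a1 had 86.3 and 116 FPKM in KO clones 4C2 and 6C4, against 116 and 124 FPKM in WT clones 4-1 and 6-1. Nid2 had 44.5 and 35.8 FPKM in KO clones 4C2 and 6C4, against 66.4 and 46.7 FPKM in WT clones 4-1 and 6-1, and Hspg2 (perlecan) had 17 and 24.6 FPKM in KO clones 4C2 and 6C4, against 24 and 22.9 FPKM in WT clones 4-1 and 6-1.

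Markers of other cell types were followed in the same libraries. The 6 of smooth muscle and myofibroblasts, several of which activated fibroblasts also express, summed to 80.5 and 148 FPKM in the KO clones of lines 4 and 6, against 97.9 and 134 FPKM in the WT clones. Acta2, smooth muscle actin, had 33.9 and 65.1 FPKM in KO clones 4C2 and 6C4, against 42.9 and 54.9 FPKM in WT clones 4-1 and 6-1. The 7 of trophectoderm summed to 31.3 and 45.3 FPKM in the KO clones of lines 4 and 6, against 26.4 and 33.2 FPKM in the WT clones, most of it from Krt8 and Krt18, keratins of simple epithelia. Krt8 had 13.2 and 22.4 FPKM in KO clones 4C2 and 6C4, against 9.73 and 14.4 FPKM in WT clones 4-1 and 6-1. Krt18 had 16 and 20.7 FPKM in KO clones 4C2 and 6C4, against 14.3 and 16.6 FPKM in WT clones 4-1 and 6-1. Both were higher in KO in both lines without passing the test. Of the 3 markers that passed the filter, Krt8 and Krt18 were thus higher in KO, and Eomes was lower in both lines. Of all genes tested, 97.6% were lower in KO in line 4 and 87.7% in line 6. The other 4 markers were also higher in KO in both lines, but stayed under 1 FPKM in all 4 libraries. Of the 7, Cdx2, Gata3, Elf5 and Hand1 did not pass the filter, and Cdx2, the defining factor, stayed at or under 0.631 FPKM. The 6 of endothelium summed to 2.44 and 3.41 FPKM in the KO clones of lines 4 and 6, against 3.29 and 4.29 FPKM in the WT clones, with the defining Cdh5 at 0.0317 to 0.18 FPKM. The 6 of blood summed to 11.4 and 8.89 FPKM in the KO clones of lines 4 and 6, against 16 and 9.37 FPKM in the WT clones, with Ptprc at 0.00937 to 0.0155 FPKM.

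Between founder lines 3 passed of the 18 markers of endoderm, smooth muscle, trophectoderm, endothelium and blood that were tested, against 1.98% of all genes. Dab2 and Cubn, endocytic proteins of endoderm, were called higher in line 6, as were 0.947% of all genes. Dab2 had 2.53 and 3.5 FPKM in the KO and WT clones of line 6, against 0.489 and 1.37 FPKM in those of line 4, and Cubn had 3.2 and 4.59 FPKM in the KO and WT clones of line 6, against 0.321 and 1.09 FPKM in those of line 4. The Dab2 log2 fold change, line 6 over line 4, came to 1.08 (SE 0.25; limma, adjusted p = 0.00234). The Cubn log2 fold change, line 6 over line 4, came to 1.54 (SE 0.26; limma, adjusted p = 8.88e-07). Lyz2, a lysozyme of macrophages, was called lower in line 6, as were 1.03% of all genes. It had 0.814 and 0.125 FPKM in the KO and WT clones of line 6, against 2.87 and 2.36 FPKM in those of line 4. The Lyz2 log2 fold change, line 6 over line 4, came to -1.34 (SE 0.24; limma, adjusted p = 5.22e-06). Without a filter on low values these calls and that of Cd44 were lost, with an adjusted p of 0.488 for Dab2, 0.355 for Cubn, 0.358 for Lyz2 and 0.372 for Cd44. All 4 were lost without WT clone 6-1 as well (adjusted p = 0.375 for Cubn and 1.0 for the others), and those of Dab2 and Cd44 without KO clone 6C4 (adjusted p = 0.634 and 1.00). Their part in the values of the members was not tested.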

How the data were processed

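RNA depleted of ribosomal RNA was sequenced from 4 clones, 2 KO and 2 WT, after ERCC control RNA was added to a fixed mass of RNA. Each deposited file gives FPKM normalized to those spike-ins, per the file headers, with a single value for a gene. The submitters' processing notes name Bowtie 0.12.8, TopHat2 2.0.9, affy, HTSeq, edgeR and the build mm9, and no roles. The sources used here do not say how the spike-ins set the scale, on which every KO over WT ratio as deposited depends. No counts are given, so depth is unknown and counting intervals cannot be had. Of 23376 entries in a file, the 92 spike-ins and 25 entries not found by name in every file were set aside.

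Genes averaging 1 FPKM or more (11932) were tested on log2(FPKM + 1), a scale that shrinks the differences of low genes. The test was limma 3.58.1 in R 4.3.3 (eBayes with a trend, two-sided, Benjamini-Hochberg over all genes, threshold 0.05), KO against WT without a block and line 6 against line 4 without a genotype term. With 2 clones per group the spread was pooled over genes of like level (prior df 16.4 for KO against WT, infinite for the lines). By the clone names the replicate number is the founder line, so equal numbers pair the clones. Across genes, deviations of KO and WT of 1 number correlated at r = 0.695. Ratios of FPKM carry no pseudocount. The script was tested on simulated data. Other pseudocounts, filters and scalings, the block, and leaving out each library were tried. Members and lists were chosen with earlier results of these data known. Test values are printed for a set list of members, for listed genes past the threshold and for the 2 members at either end of the KO vs WT log2 fold change; of pathway lists the 3 genes of highest mean level are named. Further members and markers are given by level, chosen for their role.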

Additional observations from a re-analysis of the deposited data

Results flagged for a closer look

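As deposited, KO and WT differed in opposite directions in the 2 founder lines, higher in KO in line 6 and lower in line 4. This held at the median of the fibroblast members and at 16 members with printed test values. Of all genes, 11.3% had these signs. For Col4a1 and Pdgfra the KO minus WT difference in line 6 was only 0.0020 and 0.030. The differences between lines were not tested, since the 4 libraries leave no residual degrees of freedom for them. On the log2(FPKM + 1) scale, line 6 minus line 4, the median of the fibroblast members differed by 0.76. Among collagens the difference was 0.81 for Col1a1, 0.78 for Col1a2, 0.66 for Col3a1, 0.63 for Col6a1 and 0.60 for Col4a1. Among glycoproteins and proteoglycans it was 1.12 for Fn1, 1.08 for Nid1, 1.01 for Bgn, 0.75 for Postn and 0.61 for Sparc. It was 0.90 for Lox, 0.89 for Thy1, 0.77 for Timp1, 0.59 for Vim, 0.58 for S100a4 and 0.37 for Pdgfra. The median gene was lower in KO in both lines, at -0.19 in line 6 and -0.44 in line 4. Relative to it the median of the fibroblast members was 0.57 in line 6 and 0.066 in line 4, so on that scale the directions were not opposite.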

How the results depend on the processing

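The count of members called between KO and WT was 0 under every alternative run. Over all genes it was 2 as reported, 0 without a filter, on centred values and with quantile normalization, 95 with the replicate block (91 of them lower in KO), 33 when the block was combined with centring (31 higher in KO), and 0 to 133 without single libraries. Between lines the count over all genes was 236, 0 without a filter, 3602 on centred values, 1089 with genotype as a term and 7 to 1607 without single libraries, and the count of members was 1, 0, 14, 11 and 0 to 7 in the same settings. The causes of these changes were not tested.

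Centring, with or without the replicate block, removes the median shift of -0.32 and turned these KO vs WT log2 fold changes positive: Col3a1 0.25, Col4a1 0.0053, Col6a1 0.23, Sparc 0.11, Thy1 0.26, Pdgfra 0.15, Postn 0.18, Timp1 0.21, Vim 0.16, Cyr61 0.20, S100a4 0.12. Quantile normalization gave Col3a1 0.27, Col4a1 0.044, Col6a1 0.24, Sparc 0.16, Thy1 0.26, Pdgfra 0.090, Postn 0.18, Timp1 0.25, Vim 0.25, Cyr61 0.24, S100a4 0.18. Single libraries set the sign of others, which ran as follows: Bgn from -0.22 to 0.46, Cd44 from -0.58 to 0.82, Col1a1 from -0.25 to 0.49, Col1a2 from -0.42 to 0.48, Col3a1 from -0.71 to 0.60, Col4a1 from -0.82 to 0.21, Col6a1 from -0.63 to 0.49, Cubn from -1.37 to 0.30, Cyr61 from -0.24 to 0.035, Dab2 from -1.13 to 0.11, Lama1 from -1.06 to 0.19, Lox from -0.17 to 0.40, Lyz2 from -0.34 to 1.23, Pdgfra from -0.58 to 0.27, Postn from -0.69 to 0.45, S100a4 from -0.95 to 0.58, Serpinh1 from -0.83 to 0.029, Sparc from -0.55 to 0.15, Thy1 from -0.44 to 0.35, Timp1 from -0.54 to 0.34, Vim from -0.51 to 0.22; without 1 library these values also hold the difference between lines. None of these changes made a call, and the replicate block changed no member's call. Kat2a stayed lower in KO throughout, with -1.25 under quantile normalization, where its call was lost. The medians relative to the median gene, for fibroblast members in lines 4 and 6 and for the others in lines 4 and 6, were 0.085, 0.60, -0.031, 0.23 with a pseudocount of 0.1, -0.16, 0.37, -0.28, 0.087 without a filter, where silent genes enter the median gene, 0.089, 0.59, -0.073, 0.16 with a filter of 5 FPKM, and 0.068, 0.56, -0.027, 0.22 with quantile normalization. Depth is unknown, so no detection limit can be given for members near 1 FPKM.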
